A study of Mus musculus with 17 samples.

Results

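The genes of the matrix metalloproteinases (MMPs), their tissue inhibitors (TIMPs) and the ADAMTS and ADAMTS-like proteins were examined in BAT, or brown adipose tissue, a depot that burns lipid to make heat. They were taken by name: every protein-coding gene of the count table whose symbol belongs to the Mmp, Timp or Adamts families, which gave 51 of 55414 genes. There were 23 Mmp, 4 Timp, 19 Adamts and 5 Adamtsl genes. The tissue came from C57BL/6J mice, an inbred laboratory strain, in 4 groups that cross genotype with diet. Acbp BAd-KO mice on a high-fat diet (HFD) gave 5 samples and wild-type mice on HFD gave 5, while Acbp BAd-KO mice on chow gave 3 and wild-type mice on chow gave 4. Acbp BAd-KO mice, here the knockout, carried a conditional deletion in brown adipocytes of Acbp, the gene for acyl-CoA-binding protein, listed in the table as Dbi. The HFD supplied 45% of its energy as fat and was fed for 12 weeks, and every group was housed at 22 °C. For the driver line of the deletion, and for the age and sex of the animals, nothing is given in the sources used here. Whether each sample is its own animal is likewise not labelled, so p-values reflect only the spread among these samples, part of which may be technical. In whole tissue, fewer cells of a type and less RNA per cell cannot be told apart.

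MMPs are zinc-dependent proteases that are made as inactive proenzymes and cut collagens, elastin, laminins and other proteins of the extracellular matrix. TIMPs bind the active site of MMPs and block it, and Timp3, which stays attached to the matrix, also blocks several ADAMTS and ADAM proteases. ADAMTS proteases are secreted, trim the ends of procollagens or cut the large proteoglycans versican and aggrecan, and the ADAMTS-like proteins resemble them but lack the protease domain. Fat depots remodel their matrix as adipocytes enlarge, and in mice the membrane-anchored Mmp14 is known to be needed for that remodelling in white fat. Many of these genes are transcribed mainly in stromal, vascular or immune cells rather than in the adipocytes in which Acbp was deleted.

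Library totals ran from 60162398 to 100538712 counts in HFD knockout, 59976980 to 104874625 in HFD wild-type, 47165132 to 49715461 in chow knockout and 39585167 to 43884449 in chow wild-type samples. Dbi averaged 128 ± 21.3 CPM (counts scaled to library size, mean ± SD) in HFD knockout, 701 ± 55.6 in HFD wild-type, 97.2 ± 7.93 in chow knockout and 1022 ± 64.6 in chow wild-type samples, and the knockout and wild-type samples did not overlap on either diet. The 10 brown adipocyte markers, with Ucp1 among them, summed to between 7319 and 10732 CPM over all samples, and none was at 0 in a group. The 12 skeletal muscle markers summed to 2.96 to 5206 CPM in HFD knockout, 2.13 to 3161 in HFD wild-type, 1.18 to 775 in chow knockout and 222 to 1270 in chow wild-type samples. The 12 hepatocyte markers summed to 9.18 to 239 CPM in HFD knockout, 4.69 to 190.0 in HFD wild-type, 20.8 to 79.8 in chow knockout and 16.5 to 19.1 in chow wild-type samples. Libraries of a single group could thus differ widely in RNA of other tissues, but chow wild-type libraries had similar hepatocyte sums. On chow all 12 hepatocyte markers had a higher estimate in the knockout. For 9 of them the groups did not overlap (12.8% of all genes), and 1 was called (1.06% of all genes). The library numbers in the labels fall into separate runs for the diets, so diet and run cannot be told apart. On HFD all wild-type libraries share a run with knockout replicate 1, and the other knockout libraries form another run.

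Of the 51 genes, 39 had enough counts to be tested: 14 of 23 Mmp genes, all 4 Timp, 16 of 19 Adamts and all 5 Adamtsl genes. Mmp1a, Mmp1b, Mmp7, Mmp10 and Mmp20, which are collagenases, matrilysin, a stromelysin and the enamel protease, had 0 counts in all 17 libraries, and 3 counts, the limit that a count of 0 allows, correspond to 0.0268 to 0.0907 CPM there. Mmp8, Mmp21, Mmp24, Mmp27, Adamts13, Adamts18 and Adamts19 had at most 14 counts in a library. A gene under the filter had no test, so no comparison speaks about these 12.

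Levels of different genes were compared only as CPM per kilobase of merged exons. Timp3 had the highest mean in every group, at 29.7 ± 4.41 CPM per kb in HFD knockout, 25.99 ± 4.18 in HFD wild-type, 13.5 ± 0.964 in chow knockout and 15.01 ± 1.29 in chow wild-type samples (mean ± SD). Mmp19, a secreted MMP, had the next highest mean in every group, with 11.8 ± 0.824 CPM per kb in HFD knockout, 12.01 ± 1.02 in HFD wild-type, 12.04 ± 0.942 in chow knockout and 9.74 ± 1.81 in chow wild-type samples. In chow knockout samples the ranges of these leading genes met, with Mmp19 reaching 13.1 and Timp3 starting at 12.7 CPM per kb. Timp2 followed with 8.36 ± 1.12 CPM per kb in HFD knockout and 8.27 ± 3.08 in HFD wild-type samples. The membrane-anchored Mmp15, the gelatinase Mmp2, the versican-cutting Adamts1 and Adamts9, and Timp4 lay between 3.13 and 6.18 CPM per kb in HFD samples on average. Timp1, an inhibitor often induced in inflamed tissue, had 0.342 ± 0.247 CPM per kb in HFD knockout and 0.6598 ± 0.708 in HFD wild-type samples, far less than Timp3.

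**Figure D1:**
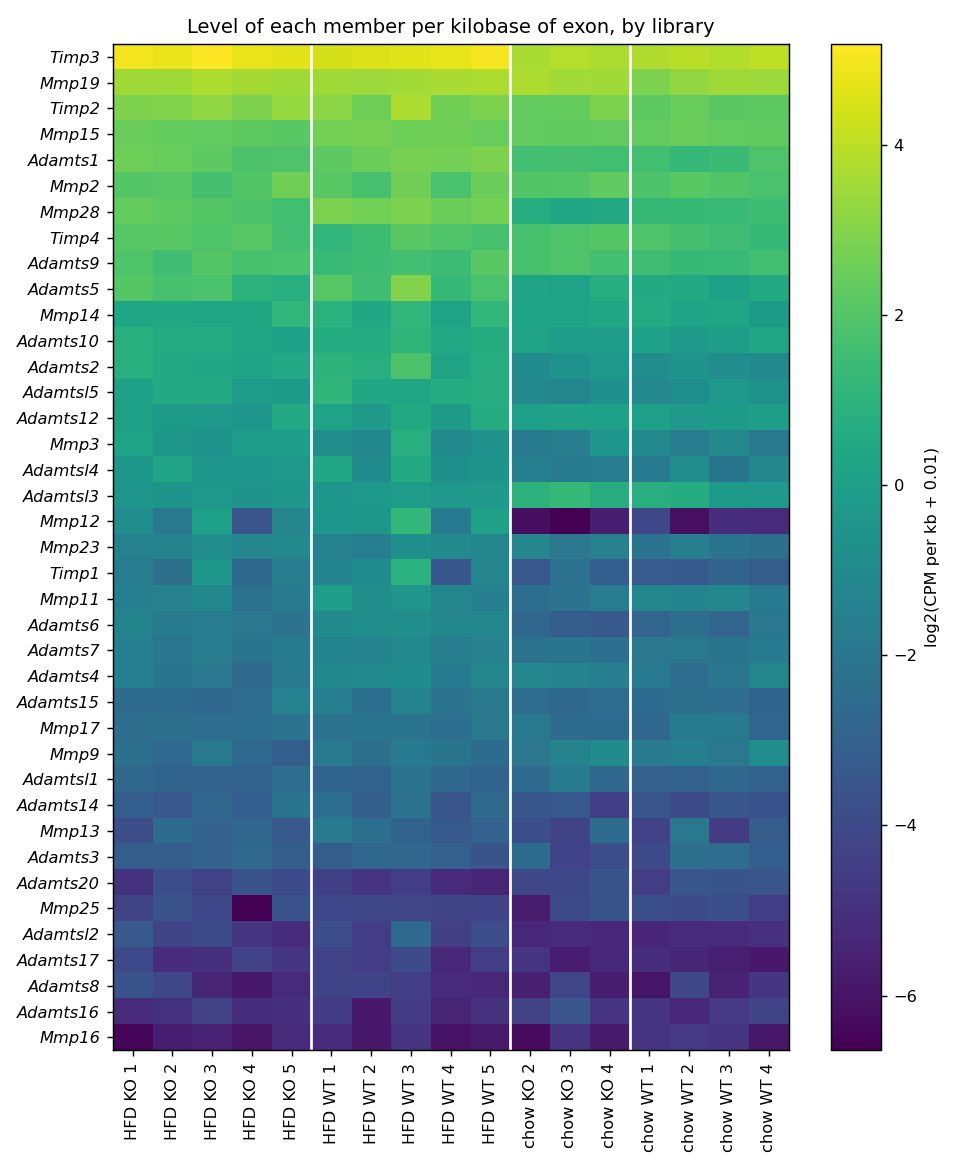
Level of the 39 tested genes in each of the 17 libraries as log2(CPM per kb + 0.01), ordered from the highest to the lowest HFD knockout mean, with white lines between the groups HFD knockout, HFD wild-type, chow knockout and chow wild-type. Timp3 and Mmp19 form the brightest rows, except that Timp2 exceeds Mmp19 in HFD wild-type replicate 3, and Mmp12 is the row with the sharpest step between the HFD and the chow libraries.

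Few of these genes differed with genotype. The clearest was Mmp28, epilysin, a secreted MMP, which fell in the knockout on both diets and was the only one of the 39 tested genes called for genotype on either diet. On HFD, Mmp28 stood at 20.5, 18.1, 16.02, 14.4 and 11.8 CPM in knockout samples and at 28.03, 24.3, 28.4, 22.3 and 25.4 CPM in wild-type samples. On chow it stood at 6.29, 4.93 and 5.42 CPM in knockout samples and at 9.297, 9.42, 10.05 and 11.00 CPM in wild-type samples. Every knockout sample was below every wild-type sample of its diet, and the HFD knockout samples were all above the chow wild-type samples. Knockout over wild-type, the log2 fold change was -0.67 ± 0.12 (SE) on HFD, a 1.59-fold drop with an adjusted p of 0.0252 by edgeR's quasi-likelihood test. On chow it was -0.84 ± 0.15, a 1.79-fold drop with an adjusted p of 0.0159. The fall averaged over diets was -0.76 ± 0.10 on the log2 scale with an adjusted p of 0.00155, and the genotype effects on the diets differed by 0.17 (adjusted p = 0.789). The averaged call held in 25 of 26 other settings, among them all 17 that left out a library. It was lost with the run of library numbers as a term, where the HFD part rests on knockout replicate 1 alone.

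Few genes of the whole table were called either: 0.536% of all 17717 tested genes were called on HFD, 1.06% on chow and 2.86% when averaged over diets (1.32% higher and 1.54% lower). Only 9 genes of the whole table were called in the same direction on both diets, which is 9.47% of the HFD calls and 4.81% of the chow calls, and Mmp28 was among them. The HFD call depended on the choice of libraries. Mmp28 in knockout replicate 1, which shares the run of the wild-type libraries, was the highest of the knockout values at 20.5 CPM, against a lowest wild-type value of 22.3 CPM. With the run as a term the HFD log2 fold change was -0.32. That fit sets knockout replicate 1 alone against the wild-type libraries, so it cannot decide the HFD call. Without the muscle-rich libraries the change was -0.46 with an adjusted p of 0.890, and without the hepatocyte-rich libraries -0.50 with an adjusted p of 0.159. Leaving out the muscle-rich libraries kept only 2 HFD knockout and 4 HFD wild-type libraries, and leaving out the hepatocyte-rich ones kept 3 and 4. With muscle and hepatocyte scores as covariates the changes were -0.63 on HFD (adjusted p = 0.0758) and -0.81 on chow (adjusted p = 0.0713). The adjusted p on chow was 0.101 without knockout replicate 3 and 0.0826 without knockout replicate 4. On HFD it was 0.0749, 0.0537 or 0.0649 without wild-type replicate 1, 2 or 3, and 0.0536 or 0.105 without knockout replicate 3 or 4. Vascular markers moved with the HFD comparison: the 10 mural markers summed to 579 to 681 CPM in knockout and 669 to 791 CPM in wild-type samples, with 1 called lower, and the 10 endothelial markers to 569 to 708 CPM in knockout and 683 to 759 CPM in wild-type samples, also with 1 called lower. None of these markers was at 0, and their part in the result was not tested. Per 100 CPM of mural markers, Mmp28 had 2.04 to 3.01 CPM in HFD knockout and 3.09 to 4.06 CPM in HFD wild-type samples, and per 100 CPM of endothelial markers it had 1.93 to 3.17 CPM in HFD knockout and 3.20 to 3.89 CPM in HFD wild-type samples, so the groups did not overlap against these lists, by a narrow margin. They did overlap against the other lists taken. Per 100 CPM of fibroblast and preadipocyte markers Mmp28 had 5.53 to 9.31 CPM in HFD knockout and 8.02 to 15.7 CPM in HFD wild-type samples, and per 100 CPM of brown adipocyte markers 0.110 to 0.233 CPM in HFD knockout and 0.226 to 0.388 CPM in HFD wild-type samples. On chow the ratio to mural markers was 0.772 to 0.951 in knockout and 1.40 to 1.57 in wild-type samples.

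The promoter of Mmp28 is shown because this gene carries the genotype result. The RefSeq window of 250 bases before to 50 bases after the transcription start lies at chr11:83462991-83463290 on the minus strand of GRCm38.p6, and its GC content is 63.7%. Capitals mark the letters GGGCGG of a GC box or, on the other strand, CCGCCC; there are 3 of them, at 33, 15 and 5 bases before the start.
Mmp28: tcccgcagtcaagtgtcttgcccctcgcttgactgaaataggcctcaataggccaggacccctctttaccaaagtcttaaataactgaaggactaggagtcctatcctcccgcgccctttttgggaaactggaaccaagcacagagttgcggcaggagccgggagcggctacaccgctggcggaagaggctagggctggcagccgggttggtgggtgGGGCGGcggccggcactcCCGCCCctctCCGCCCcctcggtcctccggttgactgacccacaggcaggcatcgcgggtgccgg
The window holds no AP-1 letters TGANTCA, no TATAAA and no TGACGTCA. Mmp28 shares exonic bases with 1700020L24Rik on the opposite strand, which read 0.155 to 0.441 CPM. The library kit does not keep strand, so reads from that overlap cannot be told apart from Mmp28.

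**Figure D2:**
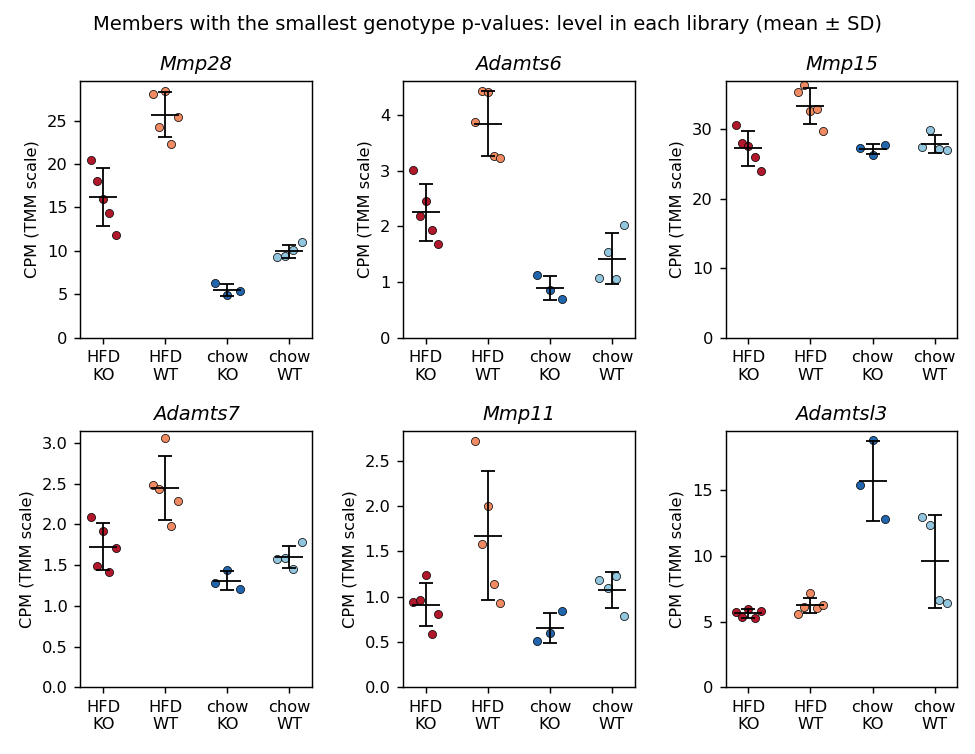
CPM of 6 genes of the genotype comparisons in each library, by group (HFD knockout, HFD wild-type, chow knockout, chow wild-type), with bars for the mean ± SD. Mmp28 separates knockout from wild-type samples on both diets, with a highest HFD knockout value of 20.5 CPM and a lowest HFD wild-type value of 22.3 CPM.

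Adamts6, a secreted protease whose close relative Adamts10 acts on fibrillin microfibrils, was the other gene called lower in the knockout, only when averaged over diets. It had 3.01, 2.19, 2.47, 1.93 and 1.68 CPM in HFD knockout samples and 3.87, 4.42, 4.41, 3.27 and 3.24 CPM in HFD wild-type samples. It had 1.13, 0.856 and 0.698 CPM in chow knockout and 1.07, 1.53, 1.06 and 2.03 CPM in chow wild-type samples. The groups did not overlap on HFD and did on chow, where knockout replicate 2 exceeded 2 of the wild-type samples. Averaged over diets Adamts6 changed by -0.72 ± 0.16 on the log2 scale (adjusted p = 0.0296). Neither diet alone passed the test, with -0.77 ± 0.20 on HFD (adjusted p = 0.0955) and -0.67 ± 0.26 on chow (adjusted p = 0.227). The averaged call was lost without the muscle-rich HFD libraries (-0.58, adjusted p = 0.265), without the hepatocyte-rich ones (-0.66, adjusted p = 0.0682) and with the tissue scores as covariates (-0.65, adjusted p = 0.0870). The averaged call was also lost with the run as a term (-0.57), where its HFD part rests on HFD knockout replicate 1 alone. Leaving out chow wild-type replicate 2, chow knockout replicate 3 or 4, HFD wild-type replicate 2 or HFD knockout replicate 4 also ended it, with adjusted p-values of 0.0536 to 0.0977. Over all 26 settings the log2 fold change of Adamts6 ran from -0.82 to -0.57.

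The remaining genes did not pass the test for genotype on either diet. On HFD 30 of the 39 tested genes had a lower point estimate in the knockout and the median log2 fold change was -0.22, beside a median of 0.00 over all genes. On chow 21 of 39 were lower and the median was -0.04, beside -0.01 over all genes. The HFD lean was not particular to these genes. On HFD 9 of 10 mural, 9 of 10 endothelial and 9 of 10 macrophage markers were also lower in the knockout. Of the fibroblast and preadipocyte markers 6 of 10 were lower, of the brown adipocyte markers 4 of 10. Of the skeletal muscle and of the hepatocyte markers 0 of 12 were lower. The part of cell composition was not tested. Groups did not overlap for 2 of 39 genes on HFD (Mmp28 and Adamts6), where 3.6% of all genes did so, and for 5 on chow (Mmp28, Adamts7, Adamts9, Adamts12 and Adamtsl1), where 12.8% did. Mmp15 read 30.6, 27.99, 27.5, 25.98 and 23.9 CPM in HFD knockout and 35.3, 36.3, 32.6, 32.9 and 29.6 CPM in HFD wild-type samples. Its highest knockout sample, replicate 1, was above the lowest wild-type sample, replicate 5. The log2 fold change of Mmp15 was -0.29 ± 0.07 (adjusted p = 0.0617), and it passed under library totals (0.0214), DESeq2 (0.0036), and without HFD wild-type replicate 5 (0.0264) or HFD knockout replicate 1 (0.0261). Adamts7, which cuts cartilage oligomeric matrix protein, stood at 1.73 ± 0.284 CPM in HFD knockout and 2.45 ± 0.394 CPM in HFD wild-type samples, a log2 fold change of -0.50 ± 0.14 (adjusted p = 0.113). Adamts7 shares 122 exonic bases with Tbc1d2b on the opposite strand, at 10.7 to 21.8 CPM, so its values are uncertain in every comparison.

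The ADAMTS-like Adamtsl3 had 15.4, 18.8 and 12.8 CPM in chow knockout and 12.96, 12.4, 6.65 and 6.41 CPM in chow wild-type samples. Wild-type replicates 1 and 2 lay near the lowest knockout sample and replicates 3 and 4 far under it. Its log2 fold change on chow was 0.71 ± 0.21 (adjusted p = 0.109). With the run of library numbers as a term it was 1.26 with an adjusted p of 0.0015; wild-type replicates 1 and 2 form a run of their own. DESeq2 also called it (0.0299). Mmp11, stromelysin-3, and Adamts4, an aggrecan-cutting protease, had HFD log2 fold changes of -0.88 ± 0.27 for Mmp11 (adjusted p = 0.162) and -0.76 ± 0.23 for Adamts4 (adjusted p = 0.1597). Both values are uncertain. Mmp11 shares 155 exonic bases with the antisense gene Chchd10, at 417 to 741 CPM, and reads of such a pair cannot be told apart without strand. Counts of Adamts4 may likewise hold reads of an overlapping gene.

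None of the inhibitors passed the genotype test. Timp4 averaged 23.3 ± 3.39 CPM in HFD knockout and 19.6 ± 4.89 CPM in HFD wild-type samples, and 22.3 ± 2.22 CPM in chow knockout and 18.3 ± 3.28 CPM in chow wild-type samples. Its log2 fold change was 0.25 ± 0.16 on HFD (adjusted p = 0.5502) and 0.28 ± 0.19 on chow (adjusted p = 0.526). Timp3 differed by 0.19 ± 0.11 on HFD (adjusted p = 0.508) and -0.15 ± 0.13 on chow (adjusted p = 0.647). For Timp2 the values were 0.02 ± 0.19 on HFD and 0.29 ± 0.23 on chow, and for the weakly expressed Timp1 -0.94 ± 0.60 on HFD and 0.35 ± 0.97 on chow. The gelatinase Mmp2 and its activator Mmp14 also missed the threshold. Mmp2 differed by -0.08 ± 0.18 on HFD and 0.13 ± 0.22 on chow, and Mmp14 by -0.26 ± 0.21 on HFD and -0.02 ± 0.26 on chow.

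**Figure D3:**
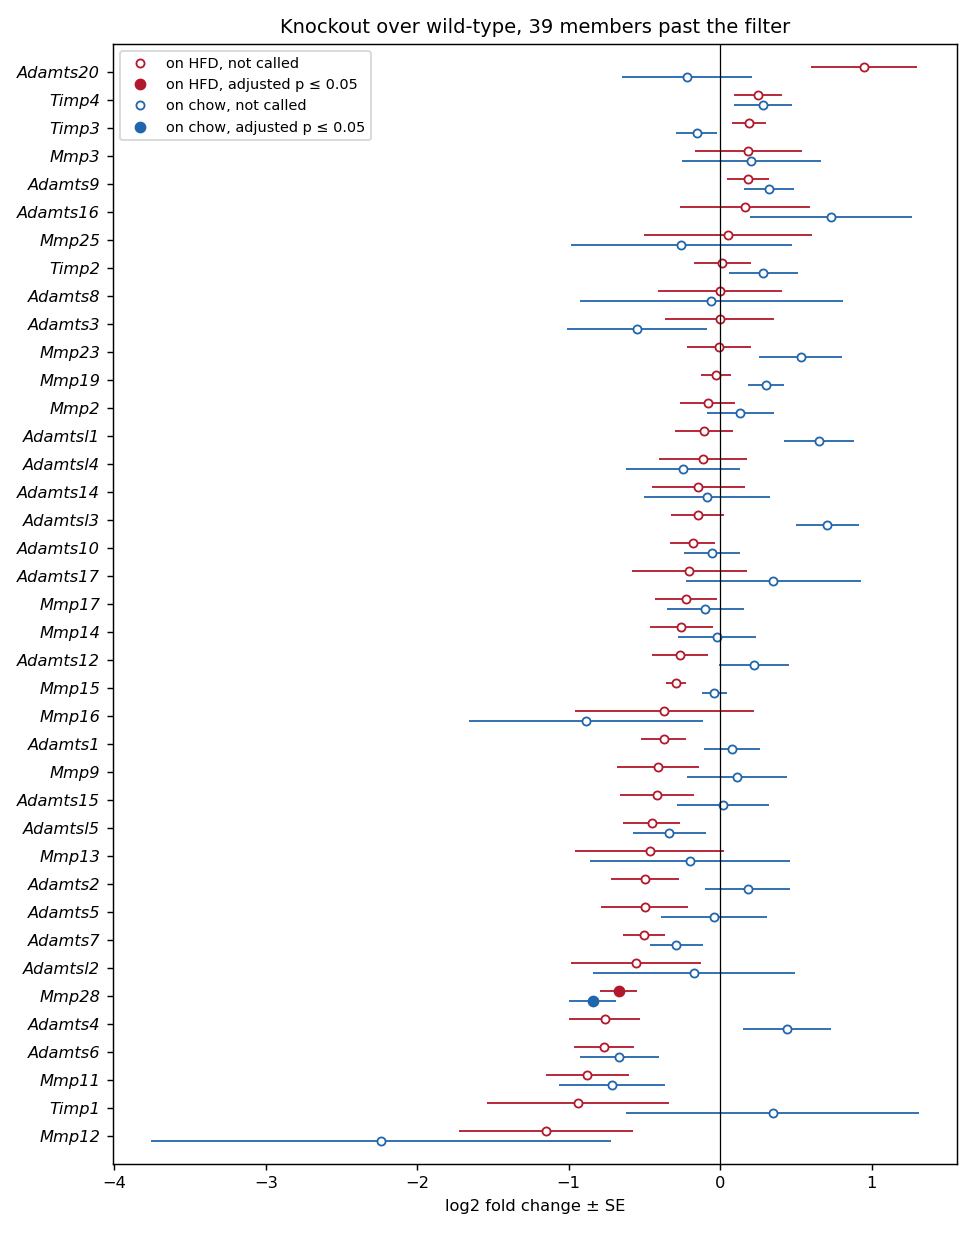
Log2 fold change of knockout over wild-type (± SE) on HFD (red) and on chow (blue) for the 39 tested genes, ordered by the HFD value. Filled points mark an adjusted p of 0.05 or less; Mmp28 alone is filled on both diets, and 30 HFD points lie left of 0.

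Diet calls were far more numerous than genotype calls, as they were over all genes. HFD over chow, 12 of the 39 tested genes were called in the knockout, 10 higher and 2 lower. That total is not far from the 25.8% of all genes called there (12.8% higher and 13.1% lower), while the members called leaned to the higher side. In wild-type mice 22 of 39 were called, 20 higher and 2 lower, beside 32.1% of all genes (16.9% higher and 15.2% lower). At an unadjusted p under 0.05 there were 19 of 39 in the knockout, beside 37.8% of all genes, and 27 of 39 in wild-type mice, beside 42.4%. The median log2 fold change of the 39 was 0.35 in the knockout and 0.62 in wild-type mice, beside 0.03 in the knockout and 0.02 in wild-type mice over all genes. Of the 12 genes called in the knockout 11 were also called in the same direction in wild-type mice, which is 91.7% of the knockout list and 50.0% of the wild-type list. Over all genes 3047 were shared in this way, 66.5% of the knockout and 53.6% of the wild-type calls. Samples of the diets did not overlap for 12 genes in the knockout and 13 in wild-type mice, where 31.6% of all genes did so in the knockout and 24.8% in wild-type mice. The knockout count is close to the share of all genes. Libraries scaled by their totals instead of TMM factors raised the median of all genes by 0.27 in the knockout and 0.48 in wild-type mice. The calls then became 15 higher and 2 lower in the knockout, and 30 higher and 0 lower in wild-type mice.

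Among the MMPs, Mmp28 rose in both genotypes. From the values above, its log2 fold change HFD over chow was 1.54 ± 0.15 in the knockout (adjusted p = 6.60e-06) and 1.37 ± 0.13 in wild-type mice (adjusted p = 4.01e-06), or 2.91-fold in the knockout and 2.58-fold in wild-type mice. It had the smallest p-value of the 39 genes in both diet comparisons. Mmp12, macrophage elastase, had the largest change. Its counts were 265, 128, 470, 34 and 321 in HFD knockout samples and 1, 0 and 3 in chow knockout samples. In wild-type mice they were 436, 421, 1311, 219 and 756 on HFD and 12, 1, 5 and 4 on chow. Chow samples were thus near the floor of 3 counts, while each HFD sample was above each chow sample of its genotype. As CPM, Mmp12 stood at 3.91, 1.85, 7.29, 0.556 and 2.94 in HFD knockout and 5.22, 5.399, 16.4, 1.96 and 7.72 in HFD wild-type samples. The fitted log2 fold changes of 6.63 ± 1.17 in the knockout (adjusted p = 8.41e-04) and 5.54 ± 0.86 in wild-type mice (adjusted p = 1.88e-04) rest on these few chow counts, so their size is imprecise. Mmp12 was 3.31 ± 2.55 CPM in HFD knockout and 7.34 ± 5.47 CPM in HFD wild-type samples on average, and that difference did not pass the test (log2 fold change -1.15 ± 0.58, adjusted p = 0.425).

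Macrophage markers moved with the diet. All 10 were detected in every group. Their sum was 96.9 to 207 CPM in HFD knockout and 66.2 to 90.5 CPM in chow knockout samples, with 8 of 10 called higher, and 117 to 262 CPM in HFD wild-type samples and 75.2 to 81.8 CPM in chow wild-type samples, with 9 of 10 called higher. Per 100 CPM of this list Mmp12 had 0.573 to 4.11 CPM in HFD knockout against at most 0.0772 CPM in chow knockout samples. In wild-type mice the ratio was 1.68 to 6.26 on HFD and 0.0335 to 0.415 on chow. Mmp12 therefore differed between diets by more than the marker list did. Whether macrophages account for it was not tested.

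The promoter window at an annotated start of Mmp12, chr9:7347124-7347423 on the plus strand of GRCm38.p6 (RefSeq), is shown because this gene had the largest diet change. Capitals mark the AP-1 letters TGAGTCA, which begin 44 bases before the annotated start, and TATAAA, which begins 4 bases after it.
Mmp12: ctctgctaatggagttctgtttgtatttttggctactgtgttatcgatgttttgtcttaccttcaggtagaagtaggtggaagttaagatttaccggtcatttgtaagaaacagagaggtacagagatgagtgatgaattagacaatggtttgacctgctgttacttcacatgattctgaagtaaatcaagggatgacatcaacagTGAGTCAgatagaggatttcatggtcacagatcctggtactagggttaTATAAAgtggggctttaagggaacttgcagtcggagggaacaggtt
The window at the other annotated start, chr9:7344147-7344446, held none of the 4 motifs searched. The letters TGANTCA were searched on both strands in the 39 promoter windows found for 36 of the 51 genes, and 8 windows (20.5%) held them, beside 7.81% of all 32851 promoter windows. These windows belong to Mmp1a, Mmp1b, Mmp3, Mmp7, Mmp10, Mmp12, Mmp13 and Mmp20, all of which lie on chromosome 9. All 8 also held TATAAA, which 12 member windows (30.8%) and 13.6% of all windows held. Only 3 of these 8 genes passed the filter, and Mmp12 alone was called for diet, while Mmp3 differed by 0.995 ± 0.43 in the knockout and 1.02 ± 0.40 in wild-type mice and Mmp13 by 0.32 ± 0.61 in the knockout and 0.59 ± 0.55 in wild-type mice. GGGCGG was held by 22 member windows (56.4%) and 35.7% of all windows, and TGACGTCA by 0 member windows and 1.79% of all. A match says only that the letters are present.

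The other MMPs gave smaller changes. Mmp15 rose in wild-type mice, with a log2 fold change of 0.004 ± 0.08 in the knockout (adjusted p = 0.971) and 0.26 ± 0.07 in wild-type mice (adjusted p = 0.0104). So did Mmp23, an MMP anchored to the membrane through its propeptide, with 0.35 ± 0.25 in the knockout (adjusted p = 0.329) and 0.89 ± 0.24 in wild-type mice (adjusted p = 0.00995). Mmp19 also passed in wild-type mice, with -0.03 ± 0.11 in the knockout (adjusted p = 0.8604) and 0.30 ± 0.11 in wild-type mice (adjusted p = 0.0381). The call of Mmp19 ended with the tissue scores as covariates (adjusted p = 0.108) and without the muscle-rich (0.0618) or the hepatocyte-rich libraries (0.111); leaving out chow wild-type replicate 1 or 2 or HFD wild-type replicate 3, 4 or 5 gave 0.0522 to 0.110. Mmp19 also shares 789 exonic bases, 22.3% of its exons, with the antisense gene Tmem198b, at 3.40 to 5.22 CPM. Mmp9, the gelatinase typical of neutrophils and macrophages, went the other way. It had 0.693, 0.549, 0.9303, 0.539 and 0.385 CPM in HFD knockout samples and 0.884, 1.37 and 1.84 CPM in chow knockout samples. HFD knockout replicate 3 was above chow knockout replicate 2, so the groups overlapped. Mmp9 changed by -1.14 ± 0.31 on the log2 scale in the knockout (adjusted p = 0.0135) and differed by -0.62 ± 0.29 in wild-type mice (adjusted p = 0.114). The knockout call ended without the muscle-rich libraries (adjusted p = 0.194), without the hepatocyte-rich libraries (0.0628) or without chow knockout replicate 4 (0.0938). The neutrophil markers gave no more than 1.33 CPM in any sample in sum, with 2 of 8 passing the filter. Mmp2 and Mmp14 were not called in either genotype. Mmp2 differed by 0.05 ± 0.21 in the knockout and 0.26 ± 0.20 in wild-type mice, and Mmp14 by 0.29 ± 0.25 in the knockout and 0.52 ± 0.23 in wild-type mice.

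Of the 4 inhibitors 1 rose on HFD in the knockout and 3 in wild-type mice. Timp3 had 255, 229.9, 297, 224 and 203 CPM in HFD knockout and 104, 119 and 107 CPM in chow knockout samples. In wild-type mice it had 176, 195, 202, 219 and 266 CPM on HFD and 113, 127, 114 and 135 CPM on chow. In both genotypes the lowest HFD sample exceeded the highest chow sample. Its log2 fold change was 1.14 ± 0.13 in the knockout (adjusted p = 2.82e-05) and 0.79 ± 0.12 in wild-type mice (adjusted p = 1.54e-04). The difference between these changes was 0.35 ± 0.17 (adjusted p = 0.516). Per 100 CPM of endothelial markers Timp3 had 33.1 to 41.9 CPM in HFD knockout and 17.6 to 20.2 CPM in chow knockout samples. In wild-type mice the margin was narrower, with 24.4 to 37.0 CPM on HFD and 19.5 to 22.7 CPM on chow. Of the 10 endothelial markers 3 were called higher with HFD in the knockout and 6 in wild-type mice, none was at 0, and their part in the result was not tested. A stretch of 1733 exonic bases of Timp3 lies in the oppositely transcribed Syn3, which read 0.543 to 1.48 CPM.

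The promoter window of Timp3, the most abundant gene of the family per kb, lies at chr10:86300162-86300461 on the plus strand of GRCm38.p6 (RefSeq) and has a GC content of 67.0%. Capitals mark 2 copies of CCGCCC, the GC box letters of the other strand, which begin 15 bases before and 13 bases after the start.
Timp3: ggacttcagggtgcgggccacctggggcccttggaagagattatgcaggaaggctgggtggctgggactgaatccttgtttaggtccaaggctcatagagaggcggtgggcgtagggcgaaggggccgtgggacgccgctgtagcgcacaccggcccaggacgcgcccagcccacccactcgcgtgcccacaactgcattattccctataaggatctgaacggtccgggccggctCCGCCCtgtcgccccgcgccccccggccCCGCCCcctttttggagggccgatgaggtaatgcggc

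Timp2, which both inhibits MMPs and helps Mmp14 to activate Mmp2, had 28.99, 30.1, 35.97, 29.3 and 38.5 CPM in HFD knockout and 19.5, 20.6 and 28.4 CPM in chow knockout samples, and 34.5, 22.9, 52.04, 23.7 and 28.03 CPM in HFD wild-type samples and 18.3, 21.2, 17.5 and 17.9 CPM in chow wild-type samples. The samples of the diets did not overlap in either genotype. Timp2 rose in wild-type mice by 0.78 ± 0.20 (adjusted p = 0.007795), and its change of 0.51 ± 0.22 in the knockout had an adjusted p of 0.0987. Timp1 was called in wild-type mice, where it stood at 0.347, 0.475, 1.68, 0.0715 and 0.357 CPM on HFD and 0.0845, 0.0822, 0.111 and 0.0907 CPM on chow. HFD wild-type replicate 4 was below every chow sample and replicate 3 was far above the others. Its log2 fold change there was 2.63 ± 0.78 (adjusted p = 0.0167), with 0.0522 without HFD wild-type replicate 3 and 0.0894 with the tissue scores. In the knockout Timp1 differed by 1.35 ± 0.83 (adjusted p = 0.246). Timp4 was not called, at 0.06 ± 0.18 in the knockout and 0.10 ± 0.17 in wild-type mice.

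**Figure D4:**
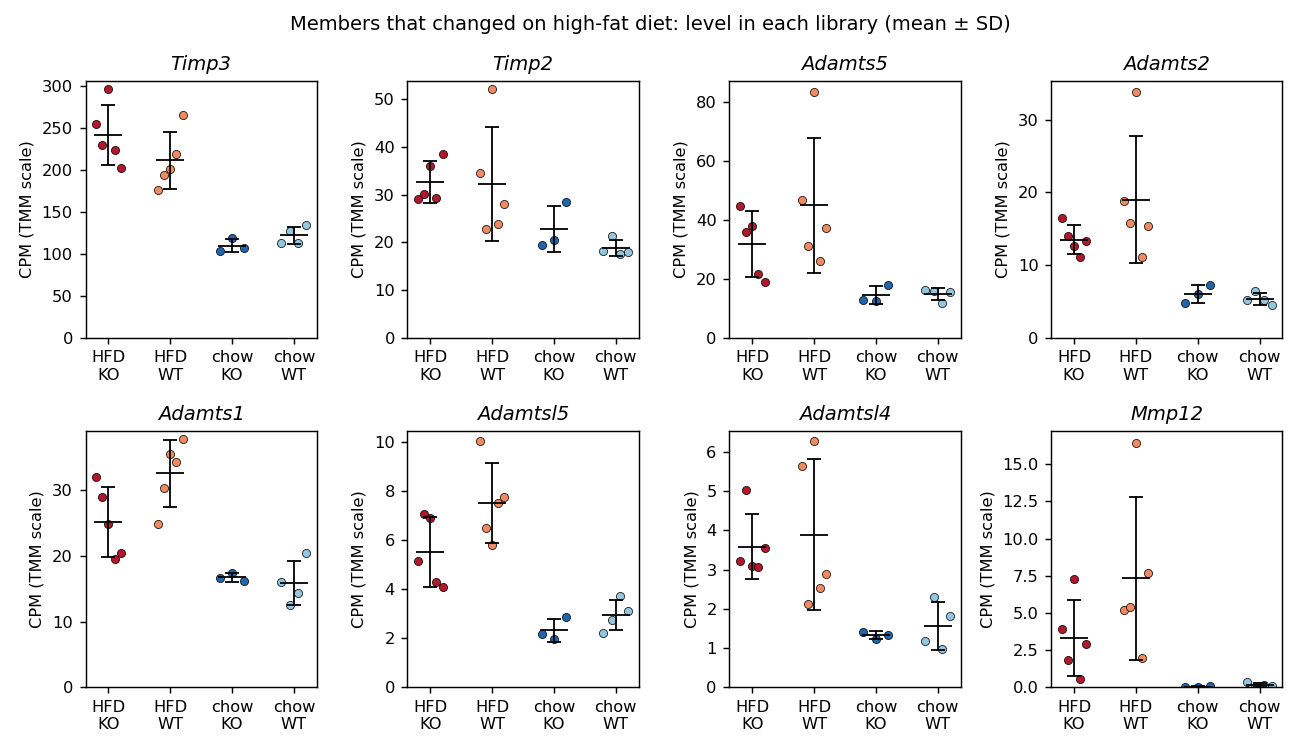
CPM of 8 genes called for diet in each library, by group (HFD knockout, HFD wild-type, chow knockout, chow wild-type), with bars for the mean ± SD. The lowest HFD value of Timp3 is 176 CPM and the highest chow value 135 CPM; HFD wild-type replicate 3 is the highest point for Timp2, Adamts5, Adamts2, Adamtsl4 and Mmp12.

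Of the 7 tested proteases that cut large proteoglycans, 2 rose on HFD in the knockout, while 3 rose and 1 fell in wild-type mice. Adamts5, an aggrecan- and versican-cutting protease, had 44.7, 35.7, 37.9, 21.5 and 18.98 CPM in HFD knockout and 12.8, 12.4 and 17.9 CPM in chow knockout samples. In wild-type mice it had 46.7, 31.2, 83.4, 25.9 and 37.2 CPM on HFD and 16.2, 15.8, 11.7 and 15.5 CPM on chow. The lowest HFD samples, knockout replicates 4 and 5, lay just above the highest chow knockout sample, and HFD wild-type replicate 3 stood far above all others. Adamts5 rose by 1.14 ± 0.35 on the log2 scale in the knockout (adjusted p = 0.0238) and by 1.60 ± 0.32 in wild-type mice (adjusted p = 0.00136). Without chow knockout replicate 2 or 3 or HFD knockout replicate 1 the knockout call ended (adjusted p = 0.0525 to 0.0914). Adamts1, which cuts versican, averaged 25.2 ± 5.35 CPM in HFD knockout and 16.8 ± 0.651 CPM in chow knockout samples, and 32.6 ± 5.08 CPM in HFD wild-type samples and 15.9 ± 3.37 CPM in chow wild-type samples. It rose by 0.59 ± 0.18 in the knockout (adjusted p = 0.0234) and 1.04 ± 0.16 in wild-type mice (adjusted p = 2.15e-04). The knockout call of Adamts1 ended without any single chow knockout replicate or HFD knockout replicate 1 (adjusted p = 0.0533 to 0.0798). Adamts15 was called higher in wild-type mice alone, by 0.72 ± 0.27 (adjusted p = 0.0487), a call that RLE size factors, no filter, and 7 of the 9 left-out libraries ended.

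Adamts20, a versican-cutting protease known in mice for its part in pigment cell migration, was among the genes that fell. In wild-type mice it had 0.336, 0.231, 0.326, 0.152 and 0.122 CPM on HFD and 0.3099, 0.712, 0.668 and 0.695 CPM on chow, where replicate 1 was far below the other chow samples and within the HFD range. It changed by -1.36 ± 0.38 on the log2 scale (adjusted p = 0.0115). In the knockout it differed by -0.18 ± 0.40 (adjusted p = 0.769). With library totals or tissue scores the wild-type call ended (adjusted p = 0.0632 and 0.0519). Adamts9, which also cuts versican, was not called in either genotype, at 0.06 ± 0.16 in the knockout and 0.20 ± 0.15 in wild-type mice.

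Of the procollagen N-propeptidases, which remove the amino-terminal propeptide of fibrillar procollagens, Adamts2 rose in both genotypes. It had 16.5, 13.9, 12.7, 11.1 and 13.2 CPM in HFD knockout and 4.77, 5.95 and 7.28 CPM in chow knockout samples. In wild-type mice it had 18.8, 15.8, 33.8, 11.1 and 15.4 CPM on HFD and 5.13, 6.44, 5.12 and 4.47 CPM on chow. No HFD sample overlapped a chow sample in either genotype. The log2 fold change was 1.17 ± 0.28 in the knockout (adjusted p = 0.00606) and 1.84 ± 0.26 in wild-type mice (adjusted p = 7.82e-05), and the difference between genotypes was -0.68 ± 0.36 (adjusted p = 0.542). Adamts14 was called in wild-type mice alone, at 1.05 ± 0.35 (adjusted p = 0.0329) beside 0.99 ± 0.39 in the knockout (adjusted p = 0.0726). That call ended in 7 of the 9 fits that leave out a library, with the tissue scores (0.0737) and without the muscle-rich libraries (0.0551). Adamts3 was not called, at 0.35 ± 0.44 in the knockout and -0.20 ± 0.39 in wild-type mice.

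Fibroblast and preadipocyte markers were higher with HFD in part. Of the 10 markers, 3 were called higher in the knockout and 4 in wild-type mice, none was at 0, and the list summed to 171 to 220.2 CPM in HFD knockout, 154 to 354 in HFD wild-type, 139.6 to 185 in chow knockout and 142 to 149.8 in chow wild-type samples. Per 100 CPM of the list Adamts2 had 6.20 to 7.47 CPM in HFD knockout against 3.41 to 3.93 CPM in chow knockout samples, and 7.20 to 10.3 CPM in HFD wild-type against 2.997 to 4.30 CPM in chow wild-type samples. Adamts5 had 8.88 to 20.3 CPM per 100 CPM in HFD knockout against 8.17 to 9.63 CPM in chow knockout samples, and 16.8 to 23.6 CPM in HFD wild-type against 8.22 to 10.9 CPM in chow wild-type samples. Adamts2 thus stayed apart between diets in both genotypes, and Adamts5 in wild-type mice, while its knockout ranges met. For Timp2 the ratio overlapped between diets in both genotypes. HFD wild-type replicate 3, where this list summed to 354 CPM, held the highest HFD wild-type value for 22 of the 39 genes (56.4%) and for 25.8% of all genes tested. Without it 17 genes were called for diet in wild-type mice instead of 22.

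Adamts6 and Adamts10, a related pair that binds fibrillin microfibrils, rose in both genotypes. The change of Adamts6 was 1.33 ± 0.25 in the knockout (adjusted p = 0.00131) and 1.43 ± 0.22 in wild-type mice (adjusted p = 1.92e-04). Adamts10 averaged 12.01 ± 2.504 CPM in HFD knockout and 8.22 ± 0.943 CPM in chow knockout samples, a change of 0.55 ± 0.18 (adjusted p = 0.0312), and it changed by 0.67 ± 0.16 in wild-type mice (adjusted p = 0.00477). Leaving out chow knockout replicate 3 or 4 or HFD knockout replicate 1, 2 or 3 ended the knockout call (adjusted p = 0.0543 to 0.122). Adamts7 was called higher in wild-type mice, with 0.40 ± 0.17 in the knockout (adjusted p = 0.0851) and 0.61 ± 0.15 in wild-type mice (adjusted p = 0.00561). Adamts17 was called there too, with 0.94 ± 0.50 in the knockout (adjusted p = 0.181) and 1.499 ± 0.48 in wild-type mice (adjusted p = 0.0238). Adamts17 lost its call without the muscle-rich libraries (0.0612), with tissue scores (0.0683), and without chow wild-type replicate 3 or 4 or HFD wild-type replicate 3 (0.0589 to 0.0639). Its counts were only 2 to 8 in chow and 10 to 35 in HFD libraries. Adamts12 and Adamts16 were not called for diet.

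The ADAMTS-like proteins split. Adamtsl5 had 5.16, 7.06, 6.900, 4.27 and 4.08 CPM in HFD knockout and 2.16, 1.97 and 2.86 CPM in chow knockout samples. In wild-type mice it had 10.03, 6.48, 5.78, 7.52 and 7.75 CPM on HFD and 2.23, 2.74, 3.701 and 3.11 CPM on chow. All HFD samples were above all chow samples, and the log2 fold change was 1.24 ± 0.23 in the knockout (adjusted p = 0.00138) and 1.35 ± 0.21 in wild-type mice (adjusted p = 2.06e-04). Adamtsl4, whose human counterpart is linked to displaced eye lenses, rose by 1.44 ± 0.37 (adjusted p = 0.00932) in the knockout and 1.31 ± 0.33 (adjusted p = 0.00634) in wild-type mice; without the muscle-rich libraries the knockout call was lost (0.0553). Adamtsl2, whose human counterpart binds a carrier protein of latent transforming growth factor beta, rose in wild-type mice by 1.92 ± 0.53 (adjusted p = 0.0116) and differed by 1.54 ± 0.59 in the knockout (adjusted p = 0.0668). With the tissue scores the wild-type call was lost (0.0541). Adamtsl2 had only 4 to 6 counts in the chow libraries. Among HFD wild-type samples it had 98 counts in replicate 3 and 21 to 46 in the others, so the size of its change is imprecise.

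Adamtsl3 fell in both genotypes. It had 5.75, 5.33, 6.001, 5.26 and 5.81 CPM in HFD knockout samples, all under the chow knockout values given above, and 5.62, 6.14, 7.19, 6.03 and 6.24 CPM in HFD wild-type samples. In wild-type mice chow replicates 3 and 4 lay within the HFD range and chow replicates 1 and 2 above it. The log2 fold change was -1.48 ± 0.19 in the knockout (adjusted p = 8.07e-05) and -0.62 ± 0.18 in wild-type mice (adjusted p = 0.0161). The wild-type call ended without chow wild-type replicate 1 (0.0754) or 2 (0.0732), without the muscle-rich libraries (0.0525) and under library totals (-0.15, adjusted p = 0.557). Adamtsl1 was not called, at -0.50 ± 0.22 in the knockout and 0.26 ± 0.21 in wild-type mice.

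**Figure D5:**
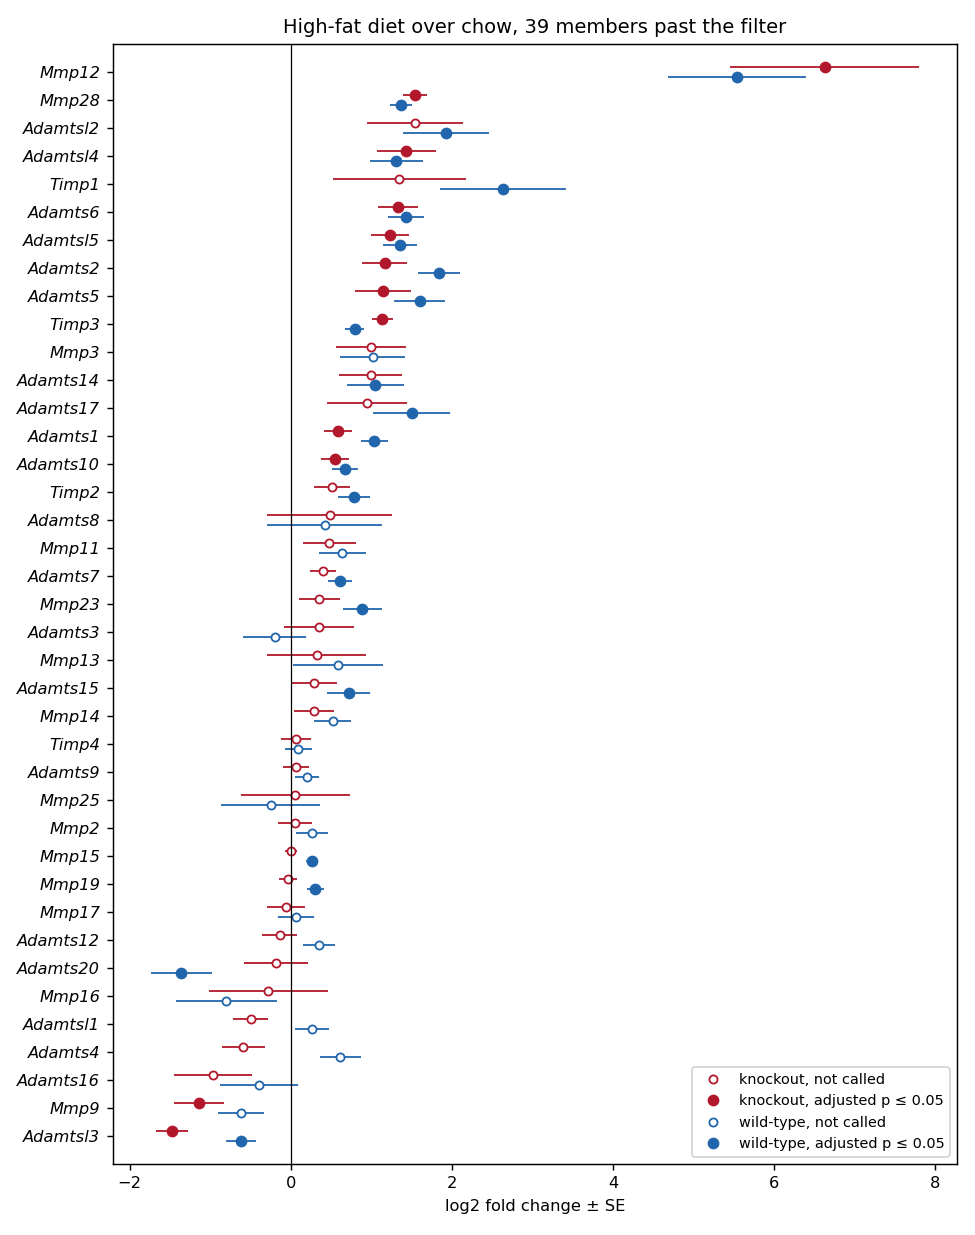
Log2 fold change of HFD over chow (± SE) in the knockout (red) and in wild-type mice (blue) for the 39 tested genes, ordered by the knockout value. Filled points mark an adjusted p of 0.05 or less, 12 in the knockout and 22 in wild-type mice; Mmp12 lies far right of the rest and Adamtsl3 is lowest in the knockout.

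The response to diet passed no test of a difference between genotypes. By edgeR 0 of the 39 tested genes were called for the interaction, beside 0.0903% of all genes (0.0452% higher and 0.0452% lower), and DESeq2 called 0 as well. At an unadjusted p under 0.05 there were 5, namely Adamts4, Adamtsl3, Adamtsl1, Mmp15 and Mmp19, where 10.4% of all genes passed. Adamts4 had 1.61, 1.13, 1.19, 0.752 and 1.43 CPM in HFD knockout and 2.16, 2.33, 2.53, 1.33 and 2.04 CPM in HFD wild-type samples, with 2.11, 1.83 and 1.58 CPM in chow knockout and 1.41, 0.849, 1.17 and 1.995 CPM in chow wild-type samples. HFD wild-type samples other than replicate 4 lay above every HFD knockout sample, and chow knockout samples lay above every chow wild-type sample other than replicate 4. The interaction was -1.21 ± 0.37 on the log2 scale (adjusted p = 0.251), and the uncertainty of its counts applies here too. For Adamtsl3 the interaction was -0.86 ± 0.27 (adjusted p = 0.265), for Adamtsl1 -0.76 ± 0.30 (0.394), for Mmp15 -0.26 ± 0.10 (0.406) and for Mmp19 -0.33 ± 0.15 (0.478). The 10 genes called for diet in wild-type mice alone from the higher side, such as Timp1, Timp2 and Mmp23, are therefore not shown to differ between genotypes.

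Across the 17 libraries, after group means were removed, Mmp28 was most like Adamts10 (Pearson r = 0.81), Adamtsl2 (0.77) and Adamts5 (0.70) among the 39 genes. Adamts6 was most like Mmp28 (0.67), Adamts10 (0.64) and Adamts7 (0.62). The highest value for Adamts5 was with Adamtsl2 (0.89), for Timp3 with Adamts9 (0.73) and for Mmp12 with Timp1 (0.67). These values describe libraries that also share depth and tissue composition.

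Related gene lists were read against the shares of all genes called for diet, which were 12.8% higher and 13.1% lower in the knockout and 16.9% higher and 15.2% lower in wild-type mice. Of the 19 tested activators, receptors and inhibitors of matrix proteolysis, 12 rose and 2 fell on HFD in the knockout, and 13 rose and 1 fell in wild-type mice. The wild-type rises include Plg, at 1.11 ± 1.74 CPM on HFD and 0 CPM on chow. In that comparison 10 of the 12 hepatocyte markers were also called higher, and their part in the Plg call was not tested. Thbs2, the matrix protein thrombospondin-2, which binds Mmp2, changed by 1.26 ± 0.29 in the knockout (adjusted p = 0.00511) and 1.70 ± 0.27 in wild-type mice (adjusted p = 2.05e-04). Furin, a convertase that removes the propeptide of membrane-type MMPs and Mmp28, fell, with -0.64 ± 0.11 in the knockout (adjusted p = 5.78e-04) and -0.44 ± 0.10 in wild-type mice (adjusted p = 0.003595). The related convertase Pcsk5 was the only one of the 19 called for genotype. It was higher in chow knockout samples, at 15.9 ± 5.05 CPM against 7.79 ± 0.8403 CPM in chow wild-type samples (log2 fold change 1.03 ± 0.19, adjusted p = 0.0148).

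Of the 9 listed ADAM genes 3 rose on HFD in the knockout (12.8% of all genes did) and 4 in wild-type mice (16.9% of all genes did). Adam9, which sheds membrane proteins, had the smallest p-values, at 0.59 ± 0.07 in the knockout (adjusted p = 2.04e-05) and 0.65 ± 0.06 in wild-type mice (adjusted p = 2.83e-06). Among 12 other matrix proteases 3 rose and 0 fell in the knockout, close to the 25.8% of all genes called there, and 7 rose and 2 fell in wild-type mice, where 32.1% of all genes were called. Cathepsin S, Ctss, a lysosomal protease abundant in macrophages, changed by 1.74 ± 0.44 in the knockout (adjusted p = 0.00819) and 1.93 ± 0.39 in wild-type mice (adjusted p = 0.00167), and Htra3, a secreted serine protease, by 1.14 ± 0.24 in the knockout (adjusted p = 0.00296) and 1.49 ± 0.22 in wild-type mice (adjusted p = 1.30e-04). Of the 20 tested proteoglycan and glycoprotein substrates 6 rose and 1 fell in the knockout, not far from the 25.8% of all genes called there, and 11 rose and 0 fell in wild-type mice, beside 32.1%. Tnc, tenascin C, changed by 1.29 ± 0.35 in the knockout and 1.67 ± 0.32 in wild-type mice, and Sparc, a collagen-binding glycoprotein, by 0.55 ± 0.13 in the knockout and 0.86 ± 0.12 in wild-type mice. Lamb1, a laminin chain, was the only substrate called for genotype. It averaged 157 ± 25.2 CPM in chow knockout and 83.9 ± 16.2 CPM in chow wild-type samples (log2 fold change 0.90 ± 0.19, adjusted p = 0.0324). On HFD it averaged 105 ± 23.3 CPM in knockout and 79.2 ± 12.7 CPM in wild-type samples and was not called. Averaged over diets Lamb1 was called higher in the knockout (0.66 ± 0.12, adjusted p = 0.0127).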

How the data were processed

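RNA of BAT was sequenced in 17 libraries made with a TruSeq RNA v2 kit, which keeps no strand. The authors deposited a table of whole-number counts per gene. Per the submitters' processing notes, FastQC, STAR 2.7.8a, RSEM 1.3.0, DESeq and GRCm39 were used, without their roles; the counts may be rounded estimates. For the annotation and strand setting, nothing is given in the sources used here. Counts were used as deposited. The members and lists were chosen with earlier results of these data known.

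From the counts, edgeR 4.0.16 in R 4.3.3 was run on all 17 libraries with the filterByExpr filter, TMM factors and quasi-likelihood tests, and p-values were adjusted by Benjamini-Hochberg over all 17717 tested genes, with a call at 0.05. The contrasts were knockout over wild-type on each diet and averaged, HFD over chow in each genotype, and their interaction. CPM used TMM library sizes, and per-kb levels used merged exon lengths of the GENCODE M21 annotation. The code was tested on simulated data. Genes named are all called members, the TIMPs, Mmp2 and Mmp14, the 4 members with the smallest p-values in each comparison, and called genes of the other lists, at most 4 per comparison; members named beyond this to complete a group or a count were chosen after their values were seen. Muscle-rich and hepatocyte-rich libraries are HFD libraries whose markers sum to over 1000 or over 100 CPM, 4 and 3 libraries. Without the muscle-rich ones 2 HFD knockout and 4 HFD wild-type libraries were left, and without the hepatocyte-rich ones 3 and 4. Chow libraries were always kept, also wild-type replicates 1 and 3 with 1118 and 1270 CPM of muscle markers. Alternatives were RLE factors, library totals, no filter, DESeq2 1.42.0, a replicate block, tissue scores, runs of library numbers and leaving out libraries. Within each group no library was a copy of another, and libraries of different groups were not compared in this way. Promoters came from RefSeq (GRCm38.p6), matched by symbol. Some results are not reported here.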

Additional observations from a re-analysis of the deposited data

Results flagged for a closer look

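Of 87 groups of 4 or 5 samples examined for the 29 named genes, 11 held a sample far from the rest of its group (12.6%), and chance flags about 1 in 20. HFD wild-type replicate 3 was high for 3 genes. Its Timp1 was 1.68 CPM, where the other HFD wild-type samples had 0.0715 to 0.475 CPM. Its Adamtsl1 was 2.74 CPM, where the others had 1.59 to 1.82 CPM. Its Adamtsl2 was 1.23 CPM, where the others had 0.269 to 0.469 CPM. Without this sample Timp1 lost its call for diet in wild-type mice.

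HFD knockout replicate 5 had 3.81 CPM of Adamts15, where the others had 1.55 to 1.81 CPM, and 13.2 CPM of Mmp14, where the others had 7.37 to 7.83 CPM. HFD knockout replicate 3 had 0.682 CPM of Timp1, where the others had 0.131 to 0.265 CPM. HFD knockout replicate 2 had 5.03 CPM of Adamtsl4, where the others had 3.07 to 3.55 CPM.

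Among chow wild-type samples, replicate 1 had 0.310 CPM of Adamts20, where the others had 0.668 to 0.712 CPM. Replicate 2 had 29.8 CPM of Mmp15, where the others had 26.9 to 27.4 CPM. Replicate 3 had 11.7 CPM of Adamts5, where the others had 15.5 to 16.2 CPM, and 1.86 CPM of Adamtsl1, where the others had 1.47 to 1.51 CPM.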

How the results depend on the processing

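For diet, the run of library numbers was not used as a term, because diet and run cannot be told apart. Diet calls were put to the other alternatives only. In wild-type mice 22 genes were called, with 17 to 30 under the alternatives and 17 to 24 when a library was left out. In the knockout 12 were called, with 10 to 17 under the alternatives and 9 to 13 when a library was left out. For the genotype on chow, 1 gene was called, with 2 by DESeq2, 0 with muscle and hepatocyte scores as covariates, 2 with the run of library numbers as a term, and 0 to 1 when a library was left out. For the genotype on HFD, 1 was called, with 3 under library totals, 6 by DESeq2, 2 with a replicate block and 0 with the scores. There were 0 without the muscle-rich and 0 without the hepatocyte-rich libraries, and 0 to 2 when a library was left out. With the run as a term this comparison sets HFD knockout replicate 1 alone against the wild-type libraries, so no count is given. The HFD part of the average with the run rests on that library too. Averaged over diets 2 were called, with 4 by DESeq2, 1 with a replicate block, 1 with the scores, 0 with the run, 1 without the muscle-rich and 1 without the hepatocyte-rich libraries, and 1 to 5 when a library was left out. The interaction gave 0 in every alternative tried for it, and the run of library numbers was not among them. The causes were not tested. Replicate numbers did not pair the samples, with correlations of -0.72 to 0.22, so the replicate block is an alternative only. Under it Mmp15 was called for genotype on HFD (adjusted p = 0.0190), while the calls of Adamts6 averaged over diets (0.0514), Adamts15 for diet in wild-type mice (0.0999), and Adamts1 (0.0695) and Adamts10 (0.0531) for diet in the knockout were lost.

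Estimates that changed sign were all uncalled. Mmp14 on chow was 0.033 under library totals, 0.072 with the replicate block and 0.16 with the run, and -0.15 to 0.11 when a library was left out. With the scores, Mmp2 on chow was -0.033 and Timp1 on chow -0.10, and Timp1 was -0.14 to 0.58 when a library was left out. Timp2 on HFD was -0.16 under library totals, -0.067 with the scores, -0.15 with the run and -0.070 without the hepatocyte-rich libraries, and -0.086 to 0.26 when a library was left out; Mmp2 on HFD was -0.23 to 0.044. For diet in wild-type mice Timp4 was -0.0067 with the scores and -0.027 to 0.21 when a library was left out. For diet in the knockout Mmp2 was -0.091 with the replicate block, -0.011 with the scores, -0.18 without the muscle-rich and -0.10 without the hepatocyte-rich libraries, and -0.10 to 0.16 when a library was left out, while Timp4 was -0.0081 to 0.15. Chow groups of 3 and 4 libraries and low counts, as for Mmp12, Timp1, Adamtsl2 and Adamts17, limit precision.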
